A study of Mus musculus with 66 samples.

Results

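Carriers of amino acids, small peptides and monocarboxylates were followed across cell-type-enriched cultures of mouse small intestinal organoids. The members were all genes of the expression table whose symbols belong to the solute carrier families Slc1, Slc3, Slc6, Slc7, Slc15, Slc16, Slc36, Slc38 or Slc43, by symbol alone. The rule found 36 of the 8978 gene symbols in the table, with 37 transcripts, because Slc3a2 has 2. It also takes in Slc7a6os, a gene beside Slc7a6 on the opposite strand that encodes no carrier. Of the 37 transcripts, 35 had enough reads to be tested, while Slc38a5 was at 0 in all 12 RNA libraries and Slc6a11 had at most 1 count in any of them.

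The organoids were grown from small intestine of Lgr5GFPDTR/+ mice, which carry a GFP and diphtheria toxin receptor cassette at the Lgr5 locus, so every culture compared here shares that allele. ENR is the standard medium with EGF, Noggin and R-Spondin. CV is ENR with 3 µM CHIR99021 and 1 mM valproic acid, given for 5 days, and enriches for Lgr5+ stem cells. EN is the same medium with R-Spondin left out for 2.5 days, after which the stem cells are depleted and most cells differentiate toward enterocytes. Each culture was represented by 4 libraries of RNA, 4 of open chromatin (ATAC-seq) and 3 of each histone mark used here, and by a single Hnf4g library. The labels do not say that replicates came from separate cultures or animals, so p-values measure the spread between these libraries, which may be technical.

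An enterocyte takes up free amino acids, di- and tripeptides across its brush border and releases amino acids to the blood side across its basolateral membrane, so the epithelium uses different carriers on its opposite faces. Uptake is driven by gradients of sodium and protons, and several carriers are heteromers, in which a heavy chain (Slc3a1 or Slc3a2) brings a transporting light chain of the Slc7 family to the membrane. Dividing cells, such as those of the crypt, depend on other carriers that supply glutamine, serine and large neutral amino acids for growth, and on carriers that move lactate.

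RNA libraries held 5630951 to 8859744 counts, so that 3 counts, the floor used for a gene at 0, correspond to 0.361 to 0.642 CPM (counts scaled to a common library total). The cultures were checked against cell type markers. Summed over 7 stem cell markers, the level was 634 to 684 CPM in CV, 1766 to 1918 in ENR and 42.0 to 49.5 in EN, and over 10 enterocyte markers it was 7654 to 8062, 8965 to 10163 and 57709 to 60270. Both sums were above 0 in every culture. The stem cell sum was lower in CV, the culture described as enriched for stem cells, than in ENR, but this direction rested on Olfm4, without which the means of the other 6 markers summed to 651 CPM in CV and 633 in ENR. Of the 7 markers, 2 were called higher in CV and 4 lower. Lgr5 itself was at 90.1 CPM in CV, 129 in ENR and 1.81 in EN (means of 4), and Olfm4 at 10.9, 1229 and 0.594. Goblet cell markers also rose in EN, from 862 to 955 CPM in CV to between 10263 and 11515, with 6 of 6 tested transcripts called, as did enteroendocrine markers (5 of 5, from at most 50.4 CPM in CV to 1919 to 2439) and tuft cell markers (3 of 3, from 1.35 to 3.86 CPM to 78.0 to 109). In ENR these sums were 1958 to 2122, 649 to 691 and 34.8 to 38.9 CPM, and the same transcripts were called higher in EN than in ENR. Among them are Muc2, Reg4 and Dclk1, which the paper, reading RNA and protein, describes as not enriched in EN over ENR. Paneth cell markers did not rise together, at 2548 to 2878 CPM in CV, 4020 to 4272 in ENR and 1510 to 1723 in EN. Of their 5 tested transcripts, 2 were higher and 3 lower in EN than in CV, and all 5 were lower than in ENR. Proliferation markers were at 1108 to 1149 CPM in CV, 1534 to 1618 in ENR and 160 to 170 in EN, with 7 of 7 called lower in EN than in CV. Markers of stromal cells (at most 26.3 CPM over 4 genes) and immune cells (at most 28.7 CPM over 4 genes) were low, and Col3a1, Pdgfra and Pdgfrb had no row. The part of these cell types in the changes below was not tested. In bulk libraries, fewer cells of a type and less RNA per cell cannot be told apart.

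Carrier transcripts changed in both directions between the cultures. Compared with CV, 16 carrier transcripts were higher in EN, 13 were lower and 6 did not pass the test (edgeR quasi-likelihood test, adjusted p under 0.01), where 35.2% of all 9288 transcripts tested were called higher and 41.2% lower, 76.4% in all. Against ENR, 19 were higher in EN and 11 lower, beside 35.5% and 37.2% of all transcripts (72.7% in all). Between CV and ENR, 15 were higher in CV and 7 lower, beside 30.2% and 29.8% (60.0% in all). The 3 comparisons share libraries and are not independent. The carriers' median log2 fold change was 0.20 for EN minus CV, 0.49 for EN minus ENR and 0.16 for CV minus ENR, and that of all transcripts was -0.08, -0.01 and -0.01. The median absolute log2 fold change was 1.75 for the carriers and 0.72 for all transcripts for EN minus CV, 1.98 and 0.64 for EN minus ENR, and 0.47 and 0.37 for CV minus ENR. With a change of at least 2-fold also required, 14 carriers were higher in EN than in CV and 9 lower, beside 15.2% and 20.1% of all transcripts. The same counts for CV against ENR were 4 and 4, beside 6.74% and 6.17%.

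**Figure D1:**
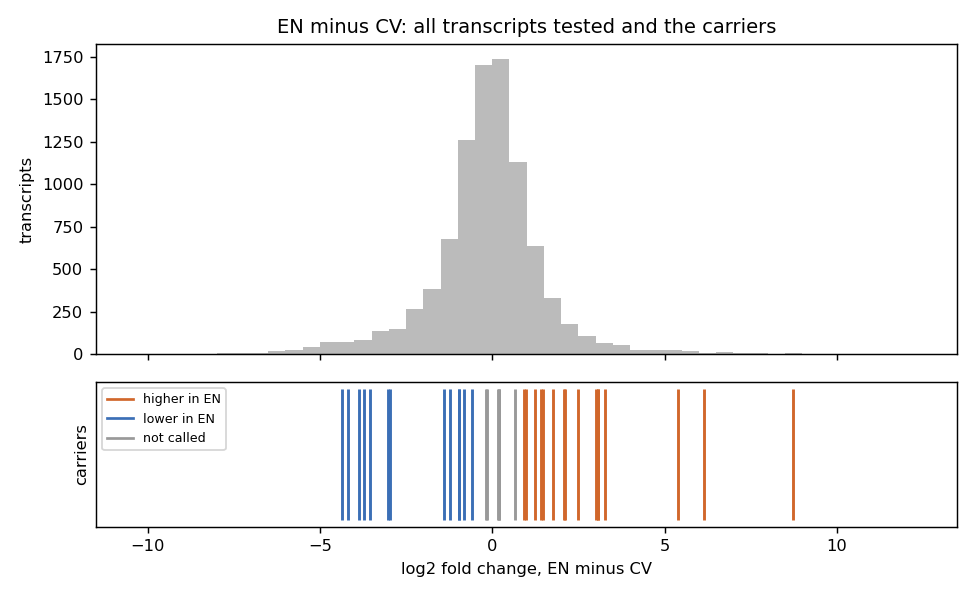
The upper panel is a histogram of the log2 fold change of EN minus CV for the 9288 transcripts tested, and the lower panel draws a vertical line for each of the 35 carrier transcripts tested. The carriers run from -4.37 to 8.72, with 16 called higher and 13 called lower.

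The split of calls moved with the scale. On mRNA copies per cell, which the authors had derived from spike-ins, 18 carriers were higher in EN than in CV and 8 lower (69.2% of calls higher, against 55.2% by counts). Against ENR, 20 were higher in EN and 6 lower (76.9% against 63.3%). Over all transcripts, 78.3% and 87.8% of calls were higher on copies, against 46.0% and 48.9% by counts, so that the carriers' share lay above that of all transcripts by counts and below it on copies. On copies, the median change over the whole table was 0.62 and 0.88 (log2). With the counts scaled to the spike-in counts instead, this median was -0.49 and -0.52. On that scale 53.3% of carrier calls were higher in EN than in CV, against 25.6% over all transcripts, and 59.3% higher than in ENR, against 20.4%. For CV against ENR, 7 carriers were then higher and 6 lower (53.8% of calls higher, against 68.2% by counts), where 39.4% of the calls over all transcripts were higher, against 50.4%. Changes are given below on the scale of the count fit (TMM normalisation), and carriers whose direction depends on the scale are named where they are described.

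The calls fell into a few patterns. In 6 genes the order was EN over ENR over CV with all 3 comparisons called: Slc15a1, Slc16a10, Slc6a19, Slc6a20a, Slc7a8 and Slc7a9. In 7 genes it was the opposite order, CV over ENR over EN: Slc16a1, Slc1a1, Slc1a4, Slc1a5, Slc38a1, Slc7a5 and Slc7a6. The step between CV and ENR in these patterns was lost on the spike-in scale for Slc16a10, Slc1a1, Slc1a4 and Slc7a5 and on mRNA copies for Slc16a10, Slc1a4, Slc7a8 and Slc7a9. EN held the highest level of 16 transcripts and the lowest of 10, with both comparisons to EN called. The shares of these patterns over all transcripts were not worked out. Of all transcripts, 76.4% were called between EN and CV and 72.7% between EN and ENR, so the counts alone do not set the carriers apart. Summed over all carriers, the level was 1221 to 1264 TPM (transcript abundance scaled by length and library total) in CV, 884 to 924 in ENR and 2629 to 2961 in EN.

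**Figure D2:**
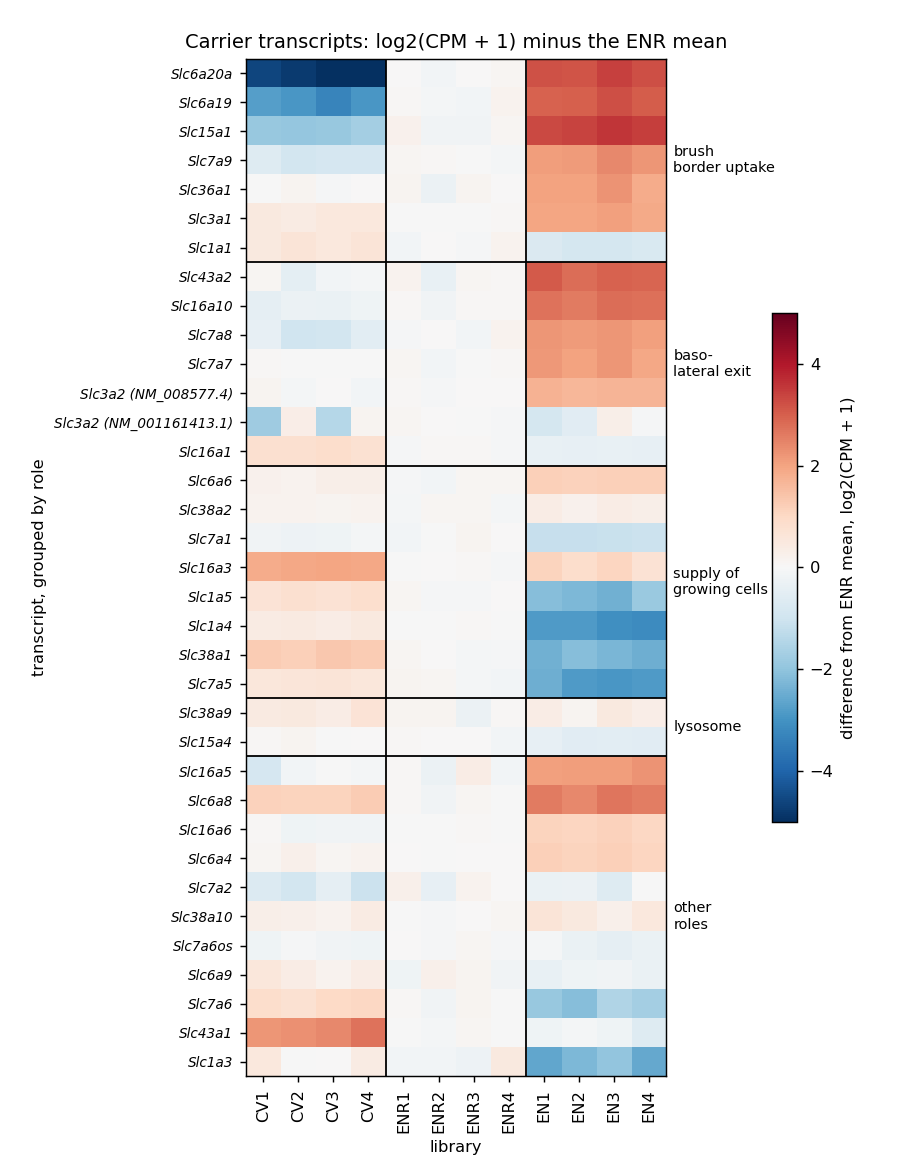
Rows are the carrier transcripts, grouped by role (Slc36a1 is drawn once, with the brush border), and columns are the 12 RNA libraries. Colour is the difference in log2(CPM + 1) from the mean of the 4 ENR libraries, so the brush border rows are mostly raised in the 4 EN libraries and the rows for the supply of growing cells are mostly lowered there.

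Carriers of the brush border rose steeply in EN. As with the other roles below, the group was drawn up with earlier results of these data known. Of the 7 measured members, 6 were higher in EN than in CV and 1 was lower, with a median log2 fold change of 3.06, and the counts were the same against ENR, with a median of 2.23. The largest rise was that of Slc6a20a, the sodium-dependent carrier of proline and other imino acids. It was at 2.10, 1.71, 1.33 and 1.35 TPM in the 4 CV libraries, 65.4, 58.5, 66.3 and 68.4 in ENR, and 541, 510, 611 and 548 in EN. The 3 cultures did not overlap. Its log2 fold change was 8.72 ± 0.11 (SE) for EN minus CV (adjusted p = 5.77e-18) and 3.26 ± 0.06 for EN minus ENR (adjusted p = 9.18e-16). Only 54 counts in all supported the CV level, which gives a ratio of EN to CV of 427 with a 95% counting interval of 327 to 568. Slc6a20b, a close paralogue, had no row in the table, and whether its reads were counted with Slc6a20a was not tested.

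Slc6a19, the main sodium-dependent carrier of neutral amino acids at the brush border, was at 7.33, 6.58, 4.86 and 6.72 TPM in CV, 50.5, 44.5, 44.1 and 54.9 in ENR, and 348, 343, 403 and 359 in EN. It thus followed the same order, with a log2 fold change of 6.15 ± 0.10 for EN minus CV (adjusted p = 1.11e-16) and 3.06 ± 0.08 for EN minus ENR. Slc15a1 is the proton-coupled carrier through which di- and tripeptides enter the enterocyte. Its libraries read 5.85, 5.66, 5.82 and 6.78 TPM in CV, 24.3, 18.3, 18.6 and 22.5 in ENR, and 193, 196, 221 and 208 in EN. The log2 fold change was 5.40 ± 0.09 for EN minus CV (adjusted p = 1.92e-16), 3.44 ± 0.08 for EN minus ENR and -1.96 ± 0.11 for CV minus ENR. On this TPM scale the order of the carriers changed: Slc16a1 (rank 1), Slc16a3 (2) and Slc3a1 (3) led in CV, and Slc6a20a (1), Slc3a1 (2) and Slc6a19 (3) in EN.

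Slc3a1 and Slc7a9 form the heteromer that takes up cystine and cationic amino acids, and their RNA did not follow the same course. The heavy chain Slc3a1 was at 156 to 170 TPM in CV, 103 to 110 in ENR and 352 to 390 in EN, so that CV lay above ENR (log2 fold change of CV minus ENR 0.50 ± 0.04, adjusted p = 7.66e-08). That call was lost on the spike-in scale, at 0.41, and on mRNA copies. The light chain Slc7a9 was at 28.2 to 34.2 TPM in CV, 45.1 to 51.1 in ENR and 189 to 228 in EN, with CV below ENR (-0.83 ± 0.08, adjusted p = 4.63e-07). In EN both were raised over CV, by 1.49 ± 0.04 for Slc3a1 (adjusted p = 3.21e-14) and 3.06 ± 0.08 for Slc7a9 (adjusted p = 9.18e-15). Slc36a1, a proton-coupled carrier of small neutral amino acids found at the brush border and in lysosomes, was at 4.33, 4.83, 4.22 and 4.54 TPM in CV, 4.35, 3.21, 4.33 and 4.07 in ENR, and 15.5, 15.0, 17.4 and 13.5 in EN. It rose over CV (2.09 ± 0.10, adjusted p = 1.69e-11) and did not pass the test between CV and ENR (0.00 ± 0.11).

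The exception was Slc1a1, the carrier of glutamate and aspartate, which fell. Its level was 32.8 to 36.6 TPM in CV, 18.7 to 23.5 in ENR and 9.87 to 11.5 in EN. The log2 fold change was -1.40 ± 0.07 for EN minus CV (adjusted p = 7.15e-11) and -0.82 ± 0.08 for EN minus ENR (adjusted p = 8.49e-08), and the latter turned to 0.18 on mRNA copies.

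**Figure D3:**
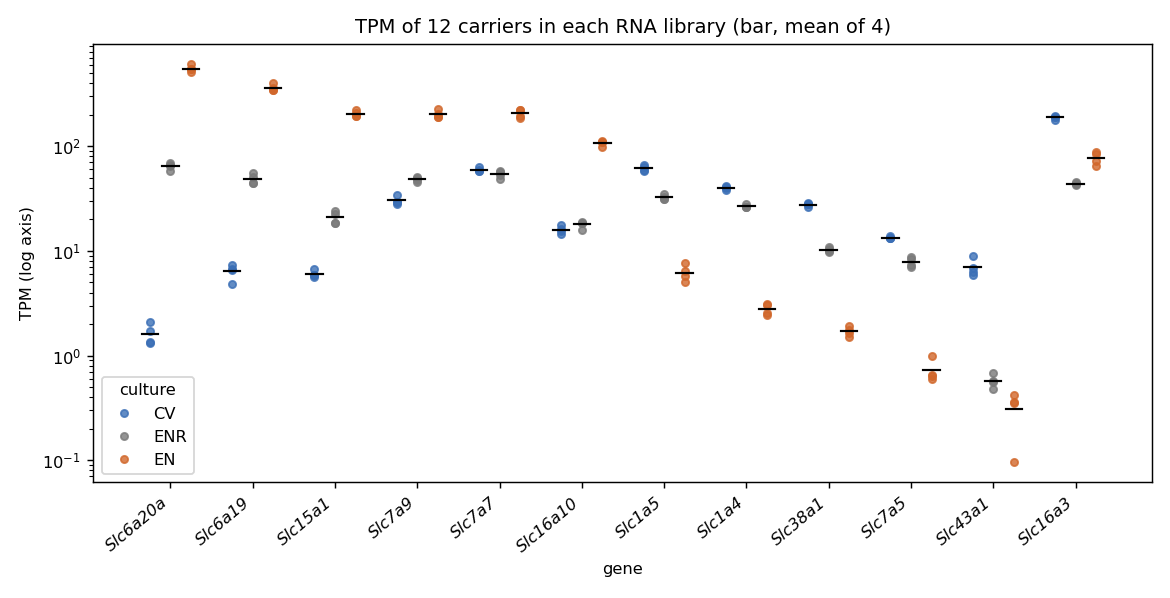
Points are single RNA libraries (4 per culture), bars are their means, and the TPM axis is logarithmic. Slc6a20a rises from 1.33 to 2.10 TPM in CV to between 510 and 611 in EN, whereas Slc7a5 falls from 13.2 to 13.9 TPM in CV to between 0.60 and 0.98.

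The carriers of basolateral exit rose as well, although mostly not between CV and ENR. Of 7 transcripts, 5 were higher in EN than in CV, 1 was lower and 1 did not pass the test (median 2.11), and the counts against ENR were the same. Between CV and ENR, 4 of the 7 did not pass the test. Slc16a10, a carrier of aromatic amino acids, was at 14.4 to 17.6 TPM in CV, 15.9 to 18.7 in ENR and 98.3 to 113 in EN (EN minus CV 3.07 ± 0.06, adjusted p = 1.22e-15). Slc43a2, a carrier of large neutral amino acids, was at 4.11, 2.54, 3.38 and 3.57 TPM in CV, 3.97, 2.54, 3.75 and 3.58 in ENR, and 29.6, 23.7, 26.5 and 26.1 in EN, a rise of 3.28 ± 0.13 over CV (adjusted p = 2.17e-12). Slc7a7 exchanges cationic for neutral amino acids at the basolateral membrane and read 57.9 to 62.9, 48.6 to 57.4 and 188 to 220 TPM in CV, ENR and EN. Its rise over CV was 2.11 ± 0.06 (adjusted p = 5.41e-14). Slc7a8, an exchanger of neutral amino acids, read 2.21 to 3.57, 3.93 to 4.95 and 17.3 to 19.6 TPM, a rise of 3.01 ± 0.12 (adjusted p = 2.59e-12). Slc16a1, a carrier of lactate and other monocarboxylates, fell from 190 to 201 TPM in CV through 93.9 to 104 in ENR to 65.2 to 69.3 in EN (EN minus CV -1.21 ± 0.04, adjusted p = 2.55e-13). The step from ENR to EN was small, at -0.40 ± 0.04, and turned to 0.56 on mRNA copies, where the fall from CV, at -0.46, no longer passed the test.

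The heavy chain Slc3a2 serves several light chains, among them Slc7a7 and Slc7a8 of basolateral exit, Slc7a5 and Slc7a6. Its main transcript, NM_008577.4, was at 32.3 to 38.7 TPM in CV, 30.1 to 33.1 in ENR and 89.7 to 99.0 in EN, a rise over CV of 1.75 ± 0.05 (adjusted p = 1.2e-13). The minor transcript, NM_001161413.1, was the only member called in no comparison, and its counts in CV were uneven (13, 81, 19 and 78). With both summed, Slc3a2 was at 38.6 ± 1.3 TPM in CV, 36.3 ± 1.3 in ENR and 97.4 ± 3.7 in EN (SD, n = 4). Slc7a5 and Slc7a6 together went from 24.7 ± 1.2 TPM in CV and 13.1 ± 0.8 in ENR to 1.81 ± 0.27 in EN, and Slc7a7 and Slc7a8 from 62.5 ± 2.9 and 58.2 ± 4.0 to 224 ± 18. Slc7a5 and Slc7a6 thus made up 26.6 to 30.1% of the RNA of these 4 light chains in CV, 16.7 to 19.5% in ENR and 0.67 to 0.88% in EN, with no overlap between cultures.

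Promoters of 4 heteromer genes that rose in EN are shown because they held the letters of an HNF4 motif, and Hnf4g was profiled in the same cultures. RefSeq promoters, from 250 bases before to 50 after each start (GRCm38.p6), were found for 27 of the 36 symbols, 37 promoters in all. The motif CAAAGNNCA, searched on both strands, was in 5 of the 37 (13.5%), those of Slc3a1, Slc7a7, Slc7a8 and Slc7a9 (2 overlapping promoters with the same match), beside 6.36% of all 32851 promoters. Slc3a1 had 3 matches, beginning 39 and 7 bases before and 6 bases after the start. Capitals mark the matches, and a match describes letters and not a bound site.
Slc3a1, chr17:85028097-85028396, plus strand: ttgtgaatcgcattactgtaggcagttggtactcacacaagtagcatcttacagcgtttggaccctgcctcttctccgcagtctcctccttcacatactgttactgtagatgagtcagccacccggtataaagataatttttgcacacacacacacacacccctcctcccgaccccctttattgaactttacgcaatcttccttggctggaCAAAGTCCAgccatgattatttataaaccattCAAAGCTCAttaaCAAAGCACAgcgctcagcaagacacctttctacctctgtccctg
Slc7a7, chr14:54409423-54409722, minus strand: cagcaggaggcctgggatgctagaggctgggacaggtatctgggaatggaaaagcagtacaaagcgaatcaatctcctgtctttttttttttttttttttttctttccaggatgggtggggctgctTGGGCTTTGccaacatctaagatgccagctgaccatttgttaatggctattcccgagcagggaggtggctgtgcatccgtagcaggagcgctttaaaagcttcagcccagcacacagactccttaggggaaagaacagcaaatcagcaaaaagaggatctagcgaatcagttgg
Slc7a8, chr14:54781837-54782136, minus strand: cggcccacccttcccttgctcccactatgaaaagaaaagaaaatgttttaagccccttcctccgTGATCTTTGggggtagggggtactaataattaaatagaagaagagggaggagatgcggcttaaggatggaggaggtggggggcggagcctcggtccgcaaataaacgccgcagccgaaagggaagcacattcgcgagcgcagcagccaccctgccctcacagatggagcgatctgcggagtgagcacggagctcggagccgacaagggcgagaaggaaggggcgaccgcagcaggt
Slc7a9, chr7:35448842-35449141, plus strand: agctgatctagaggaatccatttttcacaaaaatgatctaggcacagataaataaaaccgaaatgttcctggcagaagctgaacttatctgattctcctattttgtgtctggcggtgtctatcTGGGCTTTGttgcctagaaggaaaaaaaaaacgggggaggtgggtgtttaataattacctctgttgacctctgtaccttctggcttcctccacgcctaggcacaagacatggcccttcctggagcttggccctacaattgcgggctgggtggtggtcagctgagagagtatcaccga
The match began 124 bases before the start in Slc7a7, 186 in Slc7a8 and 127 in Slc7a9. Slc7a7 has further promoters, at chr14:54410154, 54417630, 54417653 and 54417895, and none of these held the motif. The same 9 letters, TGGGCTTTG, occurred in Slc7a7 and Slc7a9.

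Most carriers that supply growing cells were lower in EN. Of 8 measured members, 1 was higher in EN than in CV, 6 were lower and 1 did not pass the test (median -1.97). Against ENR, 3 were higher in EN and 5 lower (median -1.69). Of the 8, 6 were higher in CV than in ENR while none was lower there, but the calls of Slc7a5, Slc1a4 and Slc6a6 were lost on the spike-in scale, and those of Slc1a4 and Slc6a6 also on mRNA copies. The proliferation markers fell in EN with this group, and their part in it was not tested. Between CV and ENR the markers went the other way, with 5 of 7 transcripts lower in CV and 0 higher (median -0.58). Slc7a5, the light chain that takes up leucine and other large neutral amino acids, fell the most of these. It read 13.2, 13.3, 13.9 and 13.2 TPM in CV, 8.66, 8.31, 7.34 and 7.09 in ENR, and 0.98, 0.64, 0.60 and 0.65 in EN. The log2 fold change was -3.86 ± 0.13 for EN minus CV (adjusted p = 4.36e-13) and -3.25 ± 0.14 for EN minus ENR (adjusted p = 6.75e-12). In EN only 48 counts remained over 4 libraries, and the ratio of CV to EN was 14.6 with a 95% counting interval of 10.9 to 19.9.

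Slc38a1, a sodium-coupled carrier of glutamine, was at 26.0 to 28.9 TPM in CV, 9.66 to 10.97 in ENR and 1.52 to 1.93 in EN, a log2 fold change of -3.73 ± 0.07 for EN minus CV (adjusted p = 7.3e-16). Slc1a4, an exchanger of alanine, serine and cysteine, was at 39.96, 40.8, 37.9 and 42.0 TPM in CV, 26.1, 26.1, 28.0 and 26.4 in ENR, and 3.09, 3.07, 2.56 and 2.42 in EN (EN minus CV -3.54 ± 0.07, adjusted p = 7.89e-16). Slc1a5, the glutamine exchanger of the same family, was at 58.3 to 65.7, 31.5 to 34.6 and 5.02 to 7.68 TPM in CV, ENR and EN (-2.97 ± 0.09, adjusted p = 6.33e-14). In all 4 of these genes the cultures did not overlap and CV lay above ENR, by 1.28 ± 0.06 for Slc38a1, 0.76 ± 0.07 for Slc1a5, 0.62 ± 0.09 for Slc7a5 and 0.44 ± 0.05 for Slc1a4. On the spike-in scale Slc7a5 and Slc1a4 were at 0.52 and 0.34. Lack of overlap was common, at 76.5% of all transcripts between EN and CV, 74.2% between EN and ENR and 65.7% between CV and ENR.

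The other carriers of this group were mixed. Slc7a1, which carries cationic amino acids, fell from 9.29 to 10.6 TPM in CV to 3.93 to 4.22 in EN (-0.96 ± 0.07, adjusted p = 3.57e-09), a call lost on mRNA copies at -0.22. Slc16a3, a carrier that exports lactate, stood highest in CV, at 179 to 193 TPM against 42.4 to 45.2 in ENR and 64.5 to 88.0 in EN. It was lower in EN than in CV (-0.97 ± 0.07, adjusted p = 3.03e-09) but higher in EN than in ENR (0.98 ± 0.08, adjusted p = 1.12e-08), and these calls were lost on mRNA copies, at -0.21, and on the spike-in scale, at 0.47. Slc6a6, the taurine carrier, was the member that rose, from 47.2 to 51.3 TPM in CV to 73.1 to 77.4 in EN (0.93 ± 0.05, adjusted p = 6.63e-11). Its call between CV and ENR (0.24 ± 0.05) was lost on the spike-in scale, at 0.16, and on mRNA copies. Slc38a2, a glutamine carrier induced when amino acids are short, was at 34.3 to 35.7 TPM in CV and 28.7 to 33.3 in EN, lower in EN by TPM, whereas the count fit gave 0.16 ± 0.05 for EN minus CV (adjusted p = 0.0139), so its direction depended on the scale (-0.16 on log2(TPM + 1), -0.26 with spike-ins and 0.96 on copies).

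Slc1a4 is shown because its promoter held an amino acid response element, the motif of the factors that act when amino acids are short. The letters TGATGNAA, on either strand, were in 3 of the 37 carrier promoters (8.11%: Slc1a4 and 2 promoters of Slc7a7), beside 3.97% of all promoters. In Slc1a4 the match, in capitals, began 4 bases before the start.
Slc1a4, GRCm38.p6, chr11:20332664-20332963, minus strand: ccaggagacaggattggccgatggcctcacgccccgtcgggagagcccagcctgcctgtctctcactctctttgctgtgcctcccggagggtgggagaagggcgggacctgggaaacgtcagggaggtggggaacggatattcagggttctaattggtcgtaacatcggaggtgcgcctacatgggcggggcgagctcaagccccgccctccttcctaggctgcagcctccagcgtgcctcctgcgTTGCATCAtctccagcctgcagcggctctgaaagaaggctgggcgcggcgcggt
The GC box GGGCGG was in 26 of the 37 (70.3%), beside 35.7% of all promoters. Its share in the chromatin regions, given below, went the other way.

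In the lysosome, where amino acids are sensed by the mTOR pathway, 3 members were measured. Slc36a1 rose as given above. Slc15a4, the peptide and histidine carrier, fell from 18.3 to 20.7 TPM in CV to 9.79 to 11.5 in EN (-0.59 ± 0.07, adjusted p = 1.55e-06), a direction that turned to 0.14 on mRNA copies. Slc38a9, the arginine sensor of the lysosome, was at 4.56 to 5.78 TPM in CV and 3.07 to 3.90 in EN and did not pass the test in the count fit (-0.18 ± 0.11, adjusted p = 0.124). It was called lower in EN with spike-in scaling, at -0.61, and on log2(TPM + 1), at -0.40.

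Among the 11 members in none of these roles, 4 were higher in EN than in CV, 4 were lower and 3 did not pass the test. Slc43a1, a carrier of large neutral amino acids, stood far higher in CV than in the other cultures. It had 53, 57, 63 and 88 counts in the CV libraries, 6, 4, 6 and 6 in ENR, and 4, 3, 3 and 1 in EN. The log2 fold change was 3.42 ± 0.26 for CV minus ENR (adjusted p = 2.07e-08) and -4.18 ± 0.30 for EN minus CV (adjusted p = 2.68e-09), and ENR and EN, with 22 and 11 counts, could not be told apart at this depth (adjusted p = 0.149). Slc1a3, a glutamate carrier, had 219 counts in CV and 173 in ENR but 8 over the 4 EN libraries, a ratio of CV to EN of 21.97 with a 95% counting interval of 10.96 to 51.5. Slc7a6, the light chain that exchanges cationic and neutral amino acids, fell from 9.97 to 12.3 TPM in CV to 0.79 to 1.38 in EN (-3.03 ± 0.14, adjusted p = 1.42e-11). Slc6a9, a glycine carrier, had 80 counts in EN against 176 in CV (-0.81 ± 0.19, adjusted p = 0.00126), a call lost on mRNA copies.

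Of those that rose, Slc16a5 and Slc16a6, of the monocarboxylate carrier family, were higher in EN than in CV by 2.49 ± 0.16 (adjusted p = 9.74e-10) and 1.23 ± 0.06 (adjusted p = 2.22e-11). Slc6a8, the creatine carrier, was at 32.5 to 36.5 TPM in CV, 11.9 to 14.5 in ENR and 64.3 to 76.6 in EN, so that ENR was the lowest (EN minus CV 1.41 ± 0.06, adjusted p = 4.11e-12). Slc6a4, the serotonin carrier, rose from 40.9 to 45.6 TPM in CV to 65.3 to 72.3 in EN (0.99 ± 0.05, adjusted p = 1.32e-11). Its difference between CV and ENR, 0.16 ± 0.05, passed the test only narrowly (adjusted p = 0.0091) and was lost without CV replicate 1, 2 or 4 or any of the ENR libraries, with values from 0.13 to 0.17, and under several other settings. Slc7a2, a carrier of cationic amino acids, had 53 counts in CV and 107 in ENR (-1.10 ± 0.28, adjusted p = 0.00271), a call lost without CV replicate 4, at -0.96, or ENR replicate 1, at -0.995. Slc38a10, of the glutamine carrier family, was at 39.0 to 45.7 TPM in CV and 32.2 to 44.3 in EN, whereas the count fit gave 0.20 ± 0.07 (adjusted p = 0.0177), so its direction depended on the scale too (-0.12 on log2(TPM + 1), -0.21 with spike-ins and 1.02 on copies). It and Slc38a2 were higher in EN than in ENR, by 0.49 ± 0.07 (adjusted p = 1.82e-05) and 0.32 ± 0.05 (adjusted p = 5.33e-05), and these turned to -0.0073 and -0.19 on the spike-in scale. Slc38a10 was also higher in CV than in ENR (0.29 ± 0.07, adjusted p = 0.00257), a call lost without CV replicate 4, at 0.25, with spike-in scaling, at 0.20, and on copies, at 0.54. Slc7a6os was lower in EN than in ENR (-0.31 ± 0.08, adjusted p = 0.0027), turned to 0.68 on mRNA copies, and the call was lost without ENR replicate 3, at -0.28. The study's quantification used the strand of the reads, and Slc7a6 lies on the other strand.

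Other genes of amino acid handling were read against the 35.2% of all transcripts that were higher in EN than in CV and the 41.2% that were lower. Among enzymes of peptide digestion, 12 of 15 were higher in EN than in CV, 2 were lower and 1 did not pass the test (median 2.34). The membrane peptidase Mme rose by 6.36 ± 0.09 on the log2 scale (adjusted p = 1.51e-17), Anpep, aminopeptidase N, by 3.44 ± 0.05 (adjusted p = 5.94e-17) and Dpp4 by 2.92 ± 0.06 (adjusted p = 1.23e-15), while the metalloprotease subunit Mep1a was lower, at -0.67 ± 0.06 (adjusted p = 2.13e-08). Against ENR, 13 of the 15 were higher in EN and 0 lower, beside 35.5% and 37.2% of all transcripts, so Mep1a was not called lower there. Of the proteins that partner carriers, 3 of 5 were higher in EN than in CV and 1 was lower. The scaffold Pdzk1 rose from 0.65 to 91.0 CPM (7.09 ± 0.16, adjusted p = 2.74e-15). Bsg, the partner of Slc16a1 and Slc16a3, was lower in EN than in CV (-0.82 ± 0.04, adjusted p = 2.5e-11). Against ENR, all 5 partners were higher in EN, Bsg among them. Of 6 genes that set the sodium and proton gradients, 4 were higher in EN than in CV and 2 lower. Against ENR, 3 were higher and 2 lower.

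Among transcripts of the amino acid starvation response, 3 of 13 were higher in EN than in CV, 8 were lower and 2 did not pass the test (median -1.19). The 8 lower ones included the serine synthesis enzymes Phgdh, at -6.36 ± 0.09 (adjusted p = 2.85e-17), and Psat1, at -3.90 ± 0.07 (adjusted p = 4.49e-16), and Asns, asparagine synthetase, at -2.32 ± 0.06 (adjusted p = 1.63e-14). The transcription factors Cebpb and Cebpg rose, by 1.23 ± 0.08 (adjusted p = 5.19e-10) and 1.31 ± 0.05 (adjusted p = 7.1e-13). Lysosomal amino acid sensing, with 7 of 23 higher, 10 lower and 6 not passing (median 0.03), lay near the shares over all transcripts, and the handling of lactate and pyruvate had 2 higher, 5 lower and 1 not passing (median -0.31). Against ENR, the starvation response had 4 higher in EN and 8 lower, and lysosomal sensing 8 and 4. Lactate and pyruvate handling then had 4 higher and 2 lower (median 0.16). Over the 12 libraries, the transcripts whose log2 CPM was most like that of Slc15a1 were Sord, Slc25a45, Ddc, Chkb and Akr1b7 (Pearson r 0.999), and those most like Slc7a5 were Eif3i, Endod1, Uck2, Nsun2 and Polr2b (r 0.996 to 0.998). These r mostly describe the differences between 3 cultures.

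Chromatin at the carriers' start sites was then compared, as ATAC-seq for accessibility and as histone marks, H3K27ac and H3K4me3 being marks of active promoters and H3K27me3 the mark of Polycomb repression. A start-site region is a region of the authors' union of peaks (mm9) within 500 bp of an annotated start of a member. There were 58, at 35 of the 36 genes. Between EN and CV, ATAC score was higher in EN at 8 regions and lower at 12 (limma, adjusted p under 0.05), beside 13.0% and 13.1% of the 16766 tested regions at any annotated start (26.1% in all) and 18.3% and 15.1% of all regions (33.5% in all). Between EN and ENR it was higher at 5 and lower at 9, beside 4.72% and 6.87% of start regions (11.6% in all) and 9.98% and 11.5% of all regions (21.5% in all), and between CV and ENR higher at 2 and lower at 5, beside 4.03% and 4.23% (8.26% in all) and 4.54% and 8.95% of all regions (13.5% in all). The scores are normalised values that the authors rounded to whole numbers, so regions of a few units are coarse. Regions of 1 gene share its promoter and are not independent.

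Of the carriers that rose in RNA, Slc15a1, Slc36a1, Slc43a2, Slc6a19, Slc6a20a and Slc6a8 had start regions that were more accessible in EN than in CV. The others that rose had none called more accessible: Slc3a1, Slc3a2, Slc7a7, Slc7a8, Slc7a9, Slc16a5, Slc16a6, Slc16a10, Slc6a6 and Slc6a4. At an alternative start of Slc36a1 (chr11:55027009-55027333) the ATAC scores were 1, 2, 2 and 1 in CV, 12, 10, 9 and 8 in ENR, and 20, 35, 26 and 37 in EN. The log2 difference was 3.60 ± 0.24 for EN minus CV (adjusted p = 2.69e-06) and 1.48 ± 0.24 for EN minus ENR (adjusted p = 0.00114). At the other start of this gene (chr11:55017697-55018664) the scores overlapped, at 20 to 36 in CV and 21 to 26 in EN. Slc6a20a (chr9:123587151-123588274, a region that also covers a start of Ccr9) was at 20 to 29 in CV, 82 to 89 in ENR and 96 to 120 in EN (EN minus CV 2.03 ± 0.17, adjusted p = 6.23e-06). The larger of 2 regions of Slc6a8 rose by 0.84 ± 0.18 (adjusted p = 0.00366). Slc43a2 rose by 0.65 ± 0.23 (adjusted p = 0.0473), a call lost without CV replicate 1, 2 or 3 or EN replicate 1, 2 or 4, with values from 0.52 to 0.71.

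The start region of Slc15a1 is shown beside that of Slc43a1, which stood highest in CV, because their ATAC scores moved in opposite directions. Sequences are from mm9 in the direction of the gene, with coordinates as deposited, whose counting from 0 or 1 is not stated. Neither held the letters of the HNF4 motif.
Slc15a1, chr14:121904485-121904629, minus strand: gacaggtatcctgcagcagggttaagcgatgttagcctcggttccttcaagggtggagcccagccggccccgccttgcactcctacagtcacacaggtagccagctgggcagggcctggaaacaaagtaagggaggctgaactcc
Slc43a1, chr2:84679466-84679632, plus strand: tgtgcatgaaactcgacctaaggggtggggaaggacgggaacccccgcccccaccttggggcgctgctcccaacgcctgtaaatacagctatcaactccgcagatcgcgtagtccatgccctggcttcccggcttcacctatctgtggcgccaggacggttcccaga
The Slc15a1 region had ATAC scores of 4, 3, 2 and 2 in CV, 5, 6, 5 and 7 in ENR, and 9, 8, 13 and 16 in EN (EN minus CV 1.72 ± 0.25, adjusted p = 0.000229). A start region of Slc6a19 had 2, 2, 3 and 1 in CV, 10, 10, 6 and 9 in ENR, and 20, 35, 18 and 37 in EN (3.22 ± 0.29, adjusted p = 1.11e-05). In the Slc43a1 region the order was turned, with 15, 9, 12 and 10 in CV, 2, 4, 1 and 2 in ENR, and 3, 2, 1 and 2 in EN (-2.08 ± 0.29, adjusted p = 0.000205). In each of these regions CV did not overlap EN, and the share of all regions without overlap was not worked out.

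Among the carriers that fell in RNA, Slc1a5 was less accessible in EN at 4 regions, from -0.84 ± 0.23 (adjusted p = 0.0127) to -1.67 ± 0.23 (adjusted p = 0.000156). These lay inside the gene at annotated starts, while the widest region at its first start (chr7:17366319-17368202) did not pass the test, at -0.18 ± 0.15. Slc7a6 fell by 0.96 ± 0.16 (adjusted p = 0.000583), Slc38a1 by 0.78 ± 0.17 (adjusted p = 0.0038) and Slc16a1 by 0.64 ± 0.17 (adjusted p = 0.0109). Slc7a5, whose RNA fell steeply, had ATAC scores of 94 to 116 in CV and 73 to 105 in EN and did not pass the test (-0.26 ± 0.18, adjusted p = 0.31). The changes at Slc38a2 (-0.57), Slc6a4 (-0.78), Slc6a9 (-0.49) and the smaller of 2 regions of Slc6a8 (0.93) passed the test but were lost when some single libraries were left out, with values from -0.53 to -0.49, -0.69 to -0.67, -0.48 to -0.45 and 0.76 to 0.96. These libraries were CV replicates 1 and 4 and EN replicates 1 and 2 for Slc38a2, CV replicates 3 and 4 and EN replicates 2 and 3 for Slc6a4, CV replicates 1, 2 and 4 and EN replicates 3 and 4 for Slc6a9, and CV replicates 1 and 3 and EN replicates 1, 3 and 4 for Slc6a8. Slc6a4 was higher in EN than in CV in RNA, whereas its region had the lower ATAC score in EN.

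**Figure D4:**
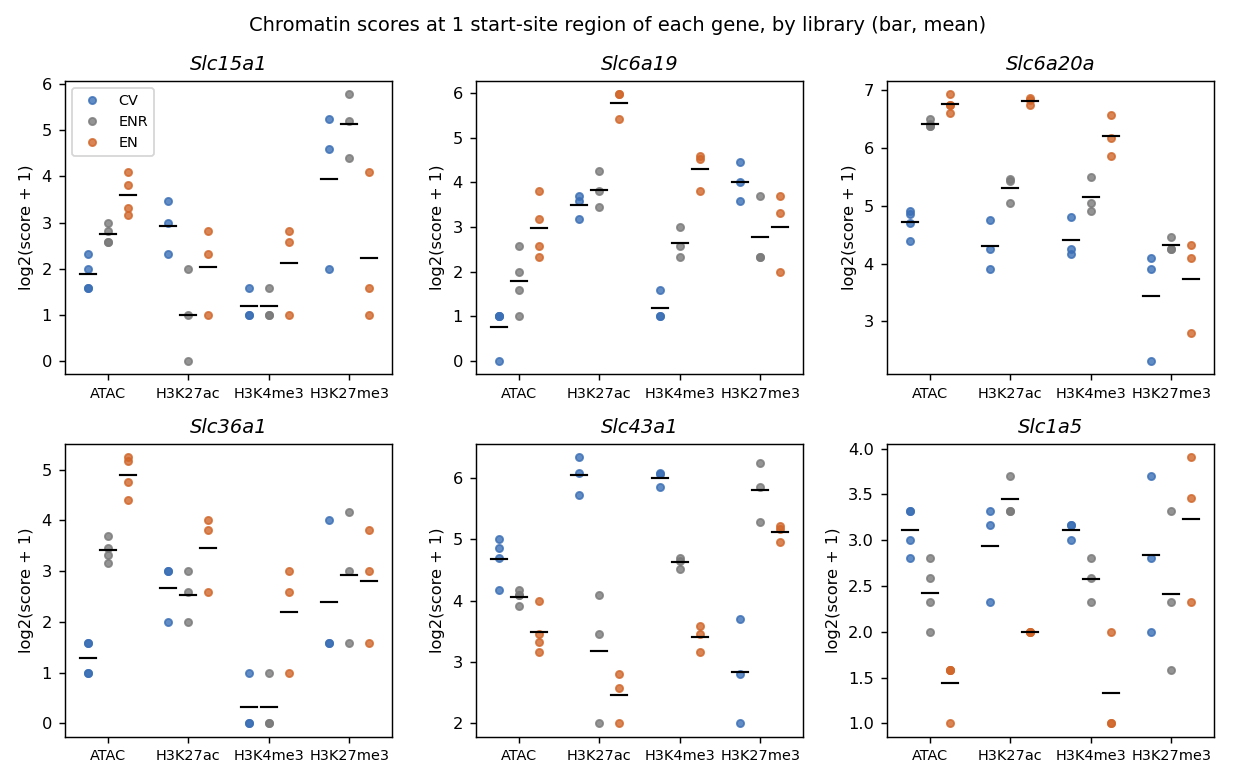
Each panel shows 1 start-site region, with log2(score + 1) of ATAC, H3K27ac, H3K4me3 and H3K27me3 for single libraries (points; 4 per culture for ATAC, 3 for each mark) and their mean (bar). The region drawn was picked for its change, as the one of its gene with the most assays called between EN and CV. Ties went to the lowest ATAC adjusted p (limma). For Slc36a1 it is the alternative start, and for Slc1a5 it lies inside the gene. In the ATAC scores of Slc36a1, CV is at 1 to 2, ENR at 8 to 12 and EN at 20 to 37.

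At Slc43a1 the 3 marks differed between cultures, though in no single comparison were all 3 called. At chr2:84679635-84681127, H3K4me3 scores were 67, 57 and 66 in CV, 25, 22 and 24 in ENR, and 8, 11 and 10 in EN, with log2 differences of 1.38 ± 0.16 for CV minus ENR (limma, adjusted p = 0.00725) and -2.60 ± 0.16 for EN minus CV (adjusted p = 0.00273). H3K27ac was at 52, 80 and 67 in CV, 3, 10 and 16 in ENR, and 3, 6 and 5 in EN (EN minus CV -3.59 ± 0.54, adjusted p = 0.0309). H3K27me3 went the opposite way, with 12, 3 and 6 in CV, 38, 57 and 75 in ENR, and 30, 35 and 36 in EN. CV was lower than ENR by 2.96 ± 0.72 there (adjusted p = 0.0497) and, at the region shown above, the difference was -3.09 ± 0.72 (adjusted p = 0.0362). The pair adjoin, and H3K27me3 was scored over widened regions, so these values share reads. Of all start regions, 0.304% were called lower in CV than in ENR for H3K27me3 and 0.00596% higher. For EN minus CV it did not pass, at 2.28 ± 0.72 (adjusted p = 0.392).

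Over all start regions, H3K4me3 differed between EN and CV at 7 of 57 (3 higher, 4 lower), beside 1.77% and 5.13% of regions at any start (6.90% in all; 2.20% and 2.19% of all regions, 4.40% in all), and H3K27ac at 4 of 58 (3 higher, 1 lower), beside 0.828% and 0.745% (1.57% in all; 0.563% and 0.418% of all regions, 0.981% in all). The higher ones were at Slc6a19 and Slc6a20a for both marks. At Slc6a20a, H3K27ac was at 14, 26 and 18 in CV, 43, 42 and 32 in ENR, and 112, 115 and 105 in EN (2.499 ± 0.412, adjusted p = 0.0336), and H3K4me3 rose by 1.79 ± 0.27 (adjusted p = 0.0103). At chr13:73837447-73837787 of Slc6a19, H3K27ac was at 11, 12 and 8 in CV and 62, 62 and 42 in EN (2.31 ± 0.42, adjusted p = 0.0377), and H3K4me3 rose by 3.11 ± 0.29 (adjusted p = 0.00273). The H3K4me3 scores that fell were at Slc43a1, Slc38a1 (-1.62 ± 0.24, adjusted p = 0.00983) and 2 regions of Slc1a5 (-1.78 ± 0.29, adjusted p = 0.014, and -1.41 ± 0.22, adjusted p = 0.0107). The H3K27ac calls rested on every library, since 0 start regions were called when any 1 of the 9 was left out. Without EN replicate 2, the count for H3K4me3 was 2 in place of 7.

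No start region passed the test for H3K27me3 between EN and CV, where limma called 0% of all start regions. At an unadjusted p under 0.05 there were 3, and limma with a trend called 2. Between EN and ENR, H3K27ac passed at 0 regions (20 at an unadjusted p under 0.05), beside 0.00596% of start regions and 0.00106% of all regions. H3K4me3 passed at 5, 2 higher and 3 lower, beside 2.11% and 2.04% of start regions (4.15% in all; 5.29% and 0.671% of all regions, 5.96% in all), among them Slc7a5, which fell by 0.78 ± 0.16 (adjusted p = 0.0347). Between CV and ENR, Slc43a1 was the 1 region called for H3K4me3, beside 1.17% of start regions called higher in CV and 0.0242% lower (1.19% in all; 1.61% and 0.0347% of all regions, 1.64% in all), and H3K27ac was called at 0 (11 at an unadjusted p under 0.05, and 0% of start regions).

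Hnf4g, a nuclear receptor of the intestinal epithelium, was profiled by ChIPmentation with 1 library per culture, so its values have no replicate check. The libraries held 84340 reads in regions in CV, 352600 in ENR and 1816497 in EN, so counts are set against these totals, and intervals cover counting error only. A gain or loss shared by all regions does not show on this scale. Of 205 regions at a member's start or within 25 kb of it, 94 had at least 10 reads in ENR or EN. Scaled to each library's reads in regions (RPM), 42 of the 94 were at least 2-fold higher in EN than in ENR, 9 were at least 2-fold lower and 43 lay between, beside 35.2% higher and 17.1% lower among all regions with that many reads. Of the start regions, 26 of 49 were higher and 3 lower, beside 41.6% and 7.23% at any start.

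The most reads in EN lay at Slc16a1, with 8, 23 and 397 reads in CV, ENR and EN, a ratio of EN to ENR of 3.35 in RPM (95% interval 2.20 to 5.35). Slc16a3 had 3, 15 and 357 reads (ratio 4.62, 2.76 to 8.34) and Slc6a20a 0, 19 and 350 (3.58, 2.26 to 6.01). The 0 reads of Slc6a20a in CV have an exact Poisson upper limit of 43.7 RPM, against 53.9 in ENR and 193 in EN. Reads at the start of Slc1a4, with 4, 48 and 252, gave a ratio of 1.02 (0.75 to 1.42). Those at Slc6a6 (11, 42 and 96) and in an intron of Slc7a7 near an annotated start (10, 42 and 75) were a smaller share of the reads in regions in EN, at 0.44 (0.31 to 0.65) and 0.35 (0.23 to 0.52). Their raw reads were more numerous in EN, so these ratios do not show lost binding. High counts were thus found at carriers that rose in RNA and at carriers that fell.

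**Figure D5:**
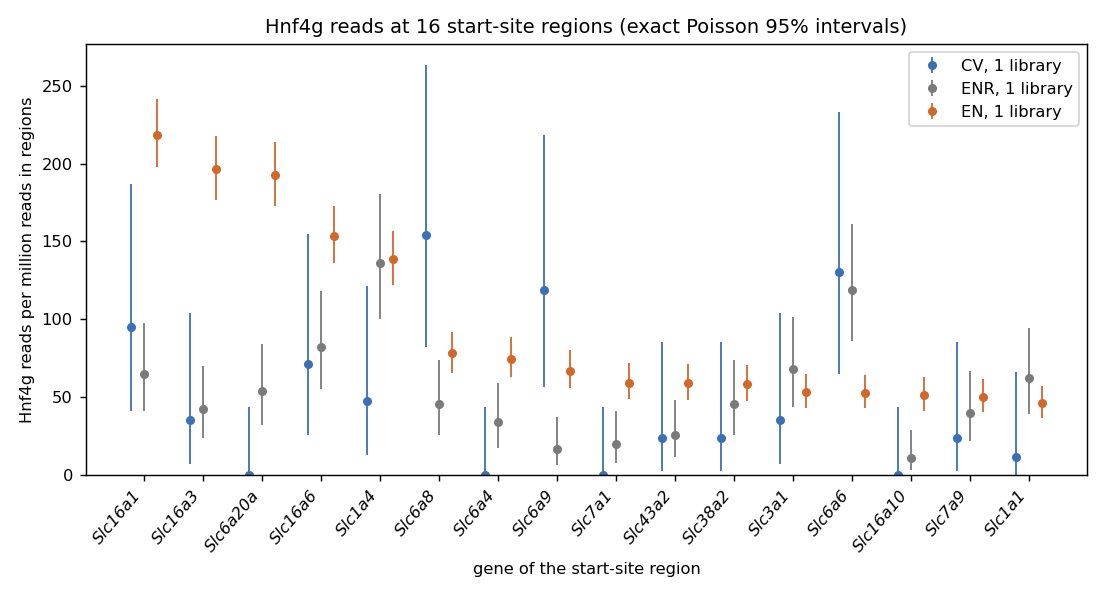
Points are Hnf4g reads, scaled to RPM, at 16 start-site regions, with 1 library per culture, and lines are exact Poisson 95% intervals. Slc16a1, Slc16a3 and Slc6a20a stand highest in EN, at 219, 197 and 193 RPM.

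At Slc15a1 the start region had 0, 2 and 6 reads in CV, ENR and EN, and a region in an intron (chr14:121897142-121897590) had 0, 3 and 55, a ratio of EN to ENR of 3.56 (1.16 to 17.8). The start region of Slc6a19 whose ATAC scores are given above had 0, 0 and 16 reads. Of the heteromer genes whose promoters held the motif, Slc3a1 had 3, 24 and 97 reads at its start (ratio 0.78, 0.50 to 1.28), Slc7a9 had 2, 14 and 91 (1.26) and Slc7a8 had 0, 5 and 49 (1.90). Slc7a7, the other such gene, is given above for a region in an intron near an annotated start, with a lower ratio. Within 300-base windows at region centres, CAAAGNNCA was in 17 of the 205 member regions (8.29%) and in 2 of their 58 start regions, beside 14.0% of all regions and 5.71% of regions at any start. Of the 20 member regions with the most Hnf4g reads in EN, 0 held these letters in that window. The GC box was in 22 of the 58 start regions (37.9%), beside 48.0% of regions at any start. It was in 29 of the 205 member regions (14.1%), beside 16.9% of all regions.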

How the data were processed

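RNA was Ribo-Zero depleted, sequenced by strand with ERCC spike-ins and quantified by the authors with kallisto on RefSeq transcripts whose proteins had been measured, so genes without a measured protein have no row. The deposited table holds estimated counts per transcript, TPM values and mRNA copies per cell, the last set by the authors from the spike-ins. ATAC-seq and ChIPmentation reads were aligned to mm9 with BWA. The deposited scores are normalised reads over a union of 94469 MACS peak regions, rounded to whole numbers by the authors, with regions for H3K27me3 widened. The deposited Hnf4g values are raw read counts, made by the authors over the same regions.

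Estimated counts were rounded and fitted in edgeR 4.0.16 (R 4.3.3) with TMM factors and the quasi-likelihood test over all 12 libraries, without the 92 spike-ins. A transcript entered the test if at least 4 libraries had a count for it (9288 of 9481), with Benjamini-Hochberg adjusted p under 0.01 as the call. CPM values are counts scaled to the library total multiplied by its TMM factor. Scores were tested as log2(score + 1) with limma 3.58.1, for regions above 0 in at least 3 libraries, at an adjusted p under 0.05. Start sites were those of GENCODE vM1. Errors are SE of log2 fold changes unless said otherwise. Ratios and Hnf4g reads carry exact 95% intervals for counting error only. Scores have no recorded depth; their sums were 817265 to 2109261 per library.

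The families, roles and gene lists were chosen with earlier results of these data known, although the rule that finds the members uses no measured value. Members were named with values where they had a role among those described or were called between EN and CV with at least a 2-fold change, and the other tested members were then added to account for each. The members with the largest change of each role got their values in every library. List genes were picked as examples after their values were seen. Scripts were tested on simulated data. Alternatives covered normalisation, spike-in scaling, TPM, copies, DESeq2 1.42.0, filters, windows, limma-trend, pseudocounts, the replicate block and leaving out each library. Further histone libraries without a column of scores and the Hnf4g knockout and wild-type RNA pair were not analysed here. A few genes and 1 sequence are not reported here.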

Additional observations from a re-analysis of the deposited data

Results flagged for a closer look

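Over the 105 groups of 4 RNA libraries (35 transcripts in 3 cultures), 7 had a library whose gap to the nearest other exceeded Dixon's critical value of 0.829 of the group's range, where chance flags about 5.25. In ENR, Slc16a10 was low in replicate 2 (58.7 CPM, against 68.7 to 69.1 in the others), Slc1a3 was high in replicate 4 (8.68, against 4.71 to 5.25), Slc1a4 was high in replicate 3 (74.3, against 69.4 to 69.97), and Slc3a1 was high in replicate 4 (165.6, against 155.4 to 155.8). In EN, Slc7a5 was high in replicate 1 (2.55 CPM, against 1.61 to 1.73). In CV, replicate 1 was high for Slc7a7 (76.4 CPM, against 70.8 to 71.1) and for Slc7a9 (34.2, against 28.3 to 29.3).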

How the results depend on the processing

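On mRNA copies, 8 carriers were lower in EN than in CV (13 by counts), 6 were lower in EN than in ENR (11), 9 were higher in CV than in ENR (15) and 3 lower (7). With spike-in scaling 7 were higher in CV than in ENR. The direction turned on copies for Slc15a4 (EN minus CV 0.14, EN minus ENR 0.46), and for EN minus ENR of Slc7a6os (0.68), Slc16a1 (0.56) and Slc1a1 (0.18), and with spike-ins for EN minus ENR of Slc38a2 (-0.19) and Slc38a10 (-0.0073). The cause was not tested. Leaving out 1 RNA library gave 16 to 17 carriers higher and 13 lower in EN than in CV, 19 to 20 and 10 to 11 against ENR, and 13 to 15 and 7 to 8 for CV against ENR.

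For start regions changed between EN and CV, ATAC gave 2 at the stricter threshold of the study's methods, 13 with the region's centre required in the window, and 16 to 20 on leaving out 1 library, in place of 20. H3K27ac gave 0 at the stricter threshold, 16 with limma-trend, 19 with log2(score + 5), 8 with quantile normalisation and 0 on leaving out 1 library, in place of 4. H3K4me3 gave 0, 13, 16 and 11 in the same order, 12 with a window of 2000 bp and 2 to 10 on leaving out 1 library, in place of 7. H3K27me3 gave 2 with limma-trend and 2 with log2(score + 5), in place of 0, and 0 on leaving out any 1 library.

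Same-numbered RNA libraries did not deviate together (correlations from -0.059 to 0.0955, with 3 of 12 libraries most like their own number). For ATAC, 8 of 12 same-numbered pairs were over 0.1 (lowest 0.0695), and 9 of 12 libraries were most like their own number, a hint from the data. Over 0.1 were also 2 of 7 pairs for H3K4me3, but 0 of 5 for H3K27ac and 0 of 6 for H3K27me3. The numbers were therefore not taken as a pairing. With the replicate number as a block, 16 carriers were higher and 13 lower in EN than in CV, 19 and 11 against ENR, and 14 and 7 for CV against ENR. The block gave 19 ATAC regions, with the calls at Slc43a2 (0.65) and the smaller Slc6a8 region (0.93) lost and that at a further Slc6a19 region (1.10) gained, 0 for H3K27ac (0 with trend too), 3 for H3K4me3 (3 with trend) and 0 for H3K27me3. Depth limits Slc43a1, Slc1a3, Slc7a2, Slc7a5, Slc7a6, Slc6a9, Slc6a20a in CV and the minor Slc3a2 transcript, each under 20 counts in some library, and Hnf4g in CV, which had the fewest reads. No alternative was run for Hnf4g, which had no replicates.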
